A study of Mus musculus with 8 samples.

Results

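Small RNA counts from annotated copies of DNA transposons were examined in mouse sperm. The copies were taken from the deposited count table by name: every sense or antisense transposon row whose element name begins with Charlie, Tigger, FordPrefect, URR, Zaphod, Arthur, Cheshire, Kanga, Looper, ORSL, MER5A, MER5B, MER5C, MER20, MER45, MER58, MER63 or MER81. This gave 17909 rows for 16975 copies, out of 783825 transposon rows and 1078961 rows in all. Rows were summed per element name and strand, which gave 220 features from 111 names among the 45090 features of the table. Sense means that the small RNA has the orientation of the element, and antisense the opposite.

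The series sequenced small RNA of mouse sperm after alcohol cessation and sets a control group against an ethanol group. Each group had 4 libraries of total RNA, extracted with Trizol and prepared with Qiaseq reagents. The control group is labelled as control treatment and the other as ethanol treatment, and all 8 libraries are mouse sperm. The labels used here name no strain, age, dose or schedule and do not say whether each library is a separate animal, so every p-value here reflects no more than variation among these 8 libraries, which may be technical.

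DNA transposons move by cut and paste: a transposase made by the element binds the terminal inverted repeats, excises the element and inserts it elsewhere. The mouse genome carries them mainly as inactive fossils of the hAT and Tc1-mariner groups, with few piggyBac elements, and many copies are short fragments without a transposase gene. In male germ cells, PIWI-interacting RNAs (piRNAs) are cut from long cluster transcripts and guide the silencing of transposons; a cluster transcript that runs through an old transposon fragment yields piRNAs that carry its sequence in either orientation.

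The deposited columns summed to 4365887 to 4921827 counts in controls and 3481865 to 6975180 in ethanol. The features used here, in which each piRNA cluster is represented by its largest transcript, summed to 4173236 to 4543220 and 3353679 to 6314205, and these sums underlie the levels and shares. Levels are given in CPM, in which edgeR's TMM factors bring the libraries to one size. Transcripts of mRNA exons took 5.87% ± 0.272 (SD, n = 4) of control and 14.4% ± 10.7 (SD, n = 4) of ethanol counts, with 30.4% in ethanol replicate 2, and miRNAs 20.8% ± 4.84 and 8.69% ± 2.30 (SD, n = 4 each). The 14 markers of spermatids and sperm were all detected and tested, and 0 of them passed in edgeR (2 had an unadjusted p under 0.05, and 2 were called by DESeq2 and 0 by limma-voom). All 14 had a negative log2 fold change, with a median of -0.53 beside 0.88 over all tested mRNA exon features. Their summed level was 658 to 844 CPM in controls and 252 to 716 CPM in ethanol. Of 15 epididymal epithelium markers, 7 were tested and 6 rose in edgeR (Crisp1, Adam7, Cdh1, Epcam, Krt8 and Krt18), beside 1560 of 6545 tested mRNA exon features; DESeq2 called 4 of these markers and limma-voom 0. Their summed level was 398 to 677 CPM in controls and 882 to 11350.5 CPM in ethanol, highest in ethanol replicate 2. Most of this sum was Crisp1, at 340 to 621 CPM in controls and 752 to 9412 CPM in ethanol. No count was found under the name Spint4. Of 10 blood and immune markers 4 were tested and 1 fell in edgeR (Hba-a1), beside 10 of 6545 tested mRNA exon features. DESeq2 called 2 of these markers lower and limma-voom 0. All 4 had a negative log2 fold change, with a median of -1.03. Of the 6 not tested, S100a8 alone had a higher mean in ethanol, at 0.506 ± 0.543 CPM in controls and 4.94 ± 5.10 CPM in ethanol (SD, n = 4 each). The summed levels of the list were 22.8 to 43.7 CPM in controls and 8.84 to 31.9 CPM in ethanol. Of 6 stromal markers 5 were tested and 0 passed in edgeR (1 had an unadjusted p under 0.05, and 1 was called by DESeq2 and 0 by limma-voom). All 5 had a negative log2 fold change, with a median of -0.71. The part of these markers and of the miRNA and mRNA shares in the results on transposons was not tested, and in bulk samples fewer cells of a type and less RNA per cell cannot be told apart. The sample codes of ethanol replicates 1 and 2 share one style those of replicates 3 and 4 another, and the controls have a style of their own. The labels do not explain these styles, which cannot be told apart from treatment, so the main values are also given without each ethanol pair.

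Counts were spread very unevenly over the copies. The 8 libraries together held 200814 DNA transposon counts, 137200 sense and 63614 antisense. Of the 17909 rows 1993 had no count, 15692 had 1 to 9 counts, 55 had at least 100 and 21 at least 1000. The 10 largest rows held 71.2% of all DNA transposon counts and 1 row, the sense strand of FordPrefect_copy126, held 38.7%. The table names a copy by element and number and gives no position, and the genome build and the placing of reads with several alignments are not given in the sources used here. Copy lengths are not given either, so an order by counts is not an order of levels per base. Among 115 rows with at least 20 counts, 7 had exactly the counts of another row of the same name in all 8 libraries, so reads of near-identical copies may be listed more than once. Reads of a copy that overlaps a gene cannot be told apart from those of the gene.

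The hAT-Tip100 group of hAT elements, 16 names with FordPrefect, Arthur, Zaphod, ORSL and, in the table's own classification, MER45, held the largest difference between the groups. FordPrefect sense measured 4279, 4858, 4707 and 2891 CPM in control replicates 1 to 4 and 508, 904, 449 and 260 CPM in ethanol replicates 1 to 4. Every ethanol library was below every control library. The level fell by 2.98 ± 0.50 (SE) on the log2 scale with an adjusted p of 0.0287 in edgeR's quasi-likelihood test with Benjamini-Hochberg adjustment over all 13515 features tested. Without ethanol replicates 1 and 2 the log2 fold change was -3.61, and without replicates 3 and 4 it was -2.73. The adjusted p rose to 0.0576 to 0.0869 when any 1 control library was left out, and with transposons alone in the fit the log2 fold change was -1.94 (adjusted p = 0.554).

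A single annotated copy carried this difference. FordPrefect_copy126 had 16698, 19200, 19275 and 10624 sense counts in control replicates 1 to 4 and 3517, 4395, 2408 and 1529 in ethanol replicates 1 to 4. In a second fit with every transposon copy as its own feature, it fell by 2.99 ± 0.50 (SE) on the log2 scale with an adjusted p of 0.0456 by edgeR's test. That call was lost with DESeq2 size factors (adjusted p = 0.0628), with limma-voom (adjusted p = 0.0506), and without control replicate 1, 2 or 3 or ethanol replicate 4 (adjusted p = 0.0633 to 0.125). The other 34 FordPrefect copies with a sense count shared 101 counts: 14, 13, 11 and 6 in controls and 22, 2, 27 and 6 in ethanol. In a fit without the largest copy of every transposon name and strand, the log2 fold change of FordPrefect sense was -0.22. Its adjusted p there was 0.803 in edgeR. The groups overlapped in the remaining FordPrefect sense counts, and the sister name FordPrefect_a had 7 sense counts in all libraries together.

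FordPrefect_copy126 was read almost entirely from one strand, with 77646 sense counts and 3 antisense counts over the 8 libraries. Set against the miRNA counts of the same library, it had 20.6, 16.4, 25.0 and 13.3 counts per 1000 miRNA counts in controls and 5.46, 20.2, 3.49 and 3.84 in ethanol. On that scale ethanol replicate 2 lay within the control range and the other 3 ethanol libraries lay below it. The miRNA share of counts itself was 20.8% ± 4.84 in controls and 8.69% ± 2.30 in ethanol (SD, n = 4 each). No other copy was set against miRNA counts.

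MER45A antisense, a minor feature of the same group, also passed the test. It measured 3.58, 4.80, 3.66 and 4.62 CPM in control replicates 1 to 4 and 2.01, 0.823, 1.66 and 1.52 CPM in ethanol replicates 1 to 4, with no overlap. It fell by 1.43 ± 0.37 (SE) on the log2 scale (adjusted p = 0.0303, edgeR). These levels rest on 101 counts in all, of which 52 (51.5%) came from MER45A_copy678. The sense strand of MER45A_copy678 held 715 counts, and its level was 21.0 ± 8.38 CPM in controls and 16.5 ± 10.9 CPM in ethanol (SD, n = 4 each; log2 fold change -0.35 ± 0.50, adjusted p = 0.688, edgeR). The MER45A antisense call was lost under limma-voom, with no count filter, without any 1 control library, without ethanol replicate 4, without either pair of ethanol libraries and with transposons alone in the fit (adjusted p = 0.0505 to 0.554). FordPrefect antisense, with 48 counts, was too low to be tested.

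**Figure D1:**
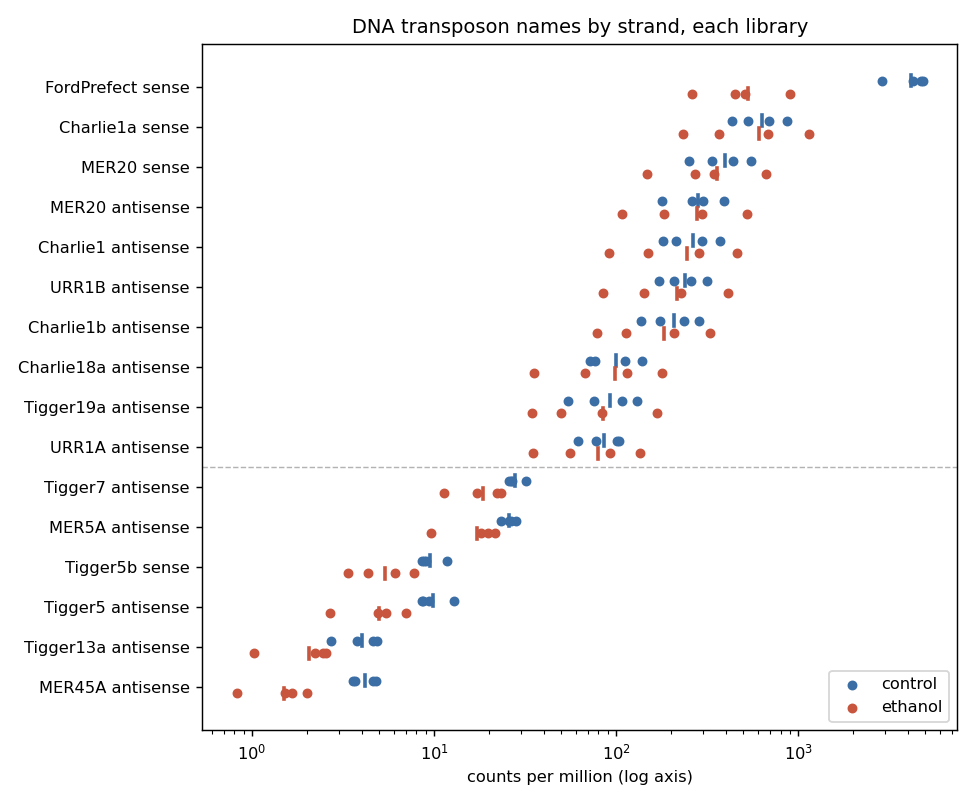
Levels in CPM (log axis) of the 10 DNA transposon names by strand with the highest mean (above the dashed line) and of the other 6 whose control and ethanol libraries did not overlap (below it); each point is 1 of 4 libraries per group and each bar a group mean. FordPrefect sense lies between 2891 and 4858 CPM in controls and between 260 and 904 CPM in ethanol, while the other 9 abundant names overlap between groups.

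Across the DNA transposons as a class, few features passed. Of the 220 names by strand 70 had enough counts to be tested, and 2 of these (2.86%) fell and 0 rose, beside 1.75% of all 13515 tested features that fell and 11.9% that rose. At an unadjusted p under 0.05 in edgeR 5 of the 70 were lower and 0 higher; DESeq2 called 3 lower and limma-voom 1, and both called 0 higher. Without ethanol replicate 3, 4 of 75 features fell, beside 5.65% of all features in that fit, with Tigger5 antisense and MER63D antisense (log2 fold change -1.51, adjusted p = 0.0345, edgeR) added; MER63D antisense, of a hAT-Blackjack element, was too low to be tested with all 8 libraries. Ethanol lay wholly below control for 7 of the 70 and wholly above for 0, beside 6.93% and 14.4% of all features. Of the single copies 53 were tested, and 1 fell and 0 rose, beside 1.02% and 6.87% of the 13911 features of that fit. For 1 of the 53 copies ethanol lay wholly below control and for 0 wholly above, beside 6.09% and 14.1%. The shares of members that fell were thus near the background, and those that rose were below it. That background of rises was mostly mRNA: 1560 of the 1604 features that rose in the fit of names were mRNA exon features.

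The median log2 fold change of the 70 features was -0.31, with 62 negative, against -0.52 for the 1006 other transposon features and -0.01 for all features. That direction depended on the scaling: with library totals 39 of 70 were negative and the median was -0.08, while the median of all features moved to 0.24, and with transposons alone in the fit 18 of 73 were negative and the median was 0.28. Without ethanol replicate 2, the library with the highest mRNA share, 49 of 77 were negative and the median was -0.16. Without ethanol replicate 3, 71 of 75 were negative and the median was -0.71, while that of all features was -0.13. The 53 copies had a median of -0.12, with 37 negative under TMM and 17 negative under library totals. Without ethanol replicates 1 and 2, 51 of 81 features by name and 24 of 65 copies were negative. Without ethanol replicates 3 and 4, 80 of 81 features by name and 59 of 64 copies were negative. The median by name was then -0.72, against -0.16 for all features.

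Names were then grouped by the share of their counts in 1 copy. With TMM scaling, for the 23 features in which 1 copy held over 50% of the counts the median log2 fold change was -0.13, for the 13 with 20 to 50% it was -0.19, and for the 34 with under 20% it was -0.41. Of those 34 scattered features 31 were negative, beside 957 of the 1006 other transposon features, and 0 passed the test. In 5 of the 34 ethanol lay wholly below control, beside 6.93% of all 13515 tested features. The levels of the medians depended on the scaling, and their order on ethanol replicate 3. From most concentrated to most scattered the medians were 0.05, -0.01 and -0.20 with library totals, 0.38, 0.34 and 0.14 with transposons alone, and -0.70, -0.73 and -0.60 without ethanol replicate 3. This is a description over features that share libraries and was not tested.

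**Figure D2:**
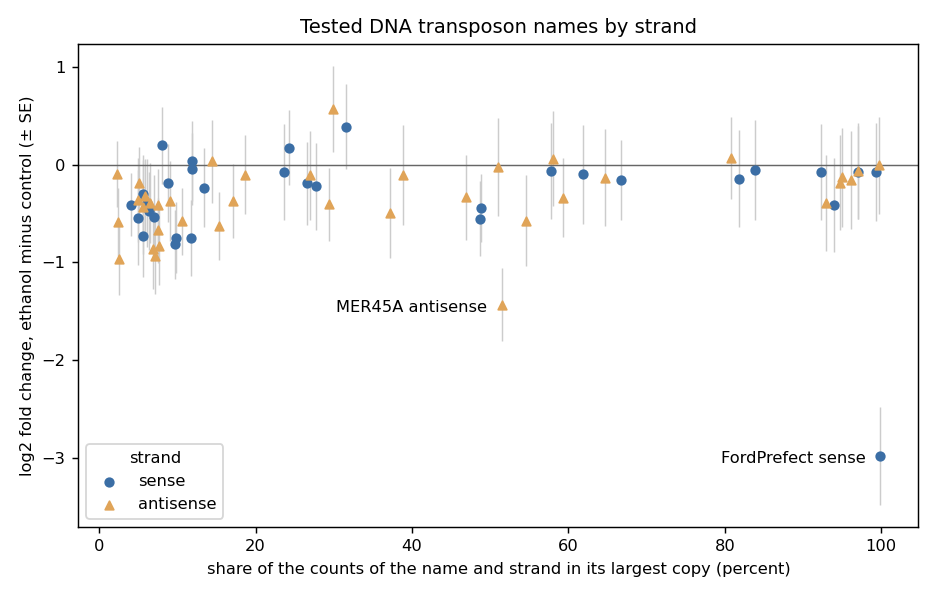
Log2 fold change of ethanol against control (points, with standard errors as grey lines) for the 70 tested DNA transposon names by strand, against the percent of each feature's counts that lie in its largest copy. FordPrefect sense at 99.9% and MER45A antisense at 51.5% are the 2 features past the threshold; with TMM scaling, as plotted, 21 of the 23 features with over 50% in 1 copy and 31 of the 34 with under 20% lie below 0.

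Those scattered features included Tigger elements, relatives of the pogo transposon in the Tc1-mariner group. Tigger5 antisense had 272 counts over 171 copies, with 2.57% in the largest. It measured 12.8, 9.36, 8.54 and 8.70 CPM in controls and 5.46, 2.67, 7.00 and 4.90 CPM in ethanol, without overlap. The log2 fold change was -0.97 ± 0.36 (SE) and its adjusted p of 0.0826 in edgeR missed the threshold; it was 0.0212 in the DESeq2 Wald test, 0.045 with replicate number as a block and 0.0309 without ethanol replicate 3. With transposons alone in the fit the log2 fold change was -0.39.

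Tigger13a antisense measured 4.61, 3.79, 4.88 and 2.72 CPM in controls and 2.44, 1.03, 2.21 and 2.54 CPM in ethanol (log2 fold change -0.94 ± 0.38, adjusted p = 0.104, edgeR). Tigger5b sense measured 11.8, 8.60, 8.79 and 8.98 CPM in controls and 7.76, 4.32, 6.08 and 3.38 CPM in ethanol (log2 fold change -0.82 ± 0.35, adjusted p = 0.124, edgeR). In both the groups were apart, and neither passed. The other 2 features with every ethanol library below every control were Tigger7 antisense, at 27.8 ± 2.86 and 18.5 ± 5.49 CPM, and MER5A antisense, at 25.9 ± 2.02 and 17.3 ± 5.25 CPM (SD, n = 4 each), named here after their values were seen. MER5A is a short hAT-Charlie element without coding capacity, and its antisense counts came from 537 copies.

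On the sense strand, the 28 Tigger names together measured 84.5 ± 9.81 CPM in controls and 55.9 ± 17.8 CPM in ethanol (SD, n = 4 each), and on the antisense strand 176 ± 33.0 and 143 ± 73.4 CPM. Of 16 tested Tigger features 0 passed in edgeR and 14 had a negative log2 fold change; 3 had an unadjusted p under 0.05, and DESeq2 called 1 (Tigger5 antisense) and limma-voom 0. Tigger19a antisense, with 95.0% of its counts in Tigger19a_copy209, was the most abundant at 92.1 ± 33.8 and 84.2 ± 60.0 CPM. Tigger10 antisense measured 2.82, 1.01, 1.95 and 1.09 CPM in controls and 2.44, 1.44, 3.50 and 2.88 CPM in ethanol, with overlap (log2 fold change 0.57 ± 0.44, adjusted p = 0.367, edgeR). Leaving out 1 library gave 0.29 to 0.80, and leaving out ethanol replicates 3 and 4 gave 0.06. Tigger13a sense gave 0.20 ± 0.39 (adjusted p = 0.748), which was -0.19 without ethanol replicate 4 and -0.05 without control replicate 4. The Kanga names, of the Tc2 group, were led by Kanga2_a antisense at 4.77 ± 1.21 and 3.75 ± 2.15 CPM (log2 fold change -0.33 ± 0.43, adjusted p = 0.611, edgeR; -0.84 to -0.14 when 1 library was left out).

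The hAT-Charlie group was the broadest, with 54 names. It took 1478 ± 408 CPM sense and 1455 ± 386 CPM antisense in controls, and 1361 ± 829 and 1328 ± 814 CPM in ethanol (SD, n = 4 each). Of 43 tested features 0 passed in edgeR, where 0 had an unadjusted p under 0.05, and 0 in DESeq2 or limma-voom. Charlie1a sense was the most abundant feature after FordPrefect and measured 691, 431, 533 and 868 CPM in controls and 679, 234, 1144 and 367 CPM in ethanol. MER20, a short hAT fragment known as part of hormone-responsive enhancers in the uterus, measured 437, 252, 336 and 553 CPM sense in controls and 346, 148, 667 and 270 CPM in ethanol. Both were highest in ethanol replicate 3 and lowest in ethanol replicate 2, and the groups overlapped.

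The other abundant names followed the same libraries. MER20 antisense measured 283 ± 89.1 and 279 ± 182 CPM in control and ethanol, Charlie1 antisense 266 ± 86.0 and 247 ± 164 CPM, and URR1B antisense, a rodent-specific hAT element, 238 ± 62.8 and 217 ± 143 CPM (SD, n = 4 each). Charlie1b antisense measured 208 ± 64.8 and 183 ± 112 CPM, Charlie18a antisense 99.6 ± 31.3 and 99.1 ± 62.5 CPM, and URR1A antisense 85.8 ± 19.8 and 79.6 ± 44.0 CPM. For these 8 and Tigger19a antisense the adjusted p lay between 0.819 and 0.992 in edgeR, and the sign of the difference depended on the setting: all 9 were negative with TMM scaling and all 9 positive with library totals, without ethanol replicate 2 or with transposons alone. Without ethanol replicate 3 the log2 fold changes of the 9 ran from -0.81 to -0.55. Charlie4a sense, with 293 counts, gave a log2 fold change of 0.18 ± 0.38 (adjusted p = 0.775, edgeR).

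The remaining groups were small. In hAT-Tip100, Zaphod sense measured 3.33, 1.77, 1.22 and 1.90 CPM in controls and 2.30, 1.44, 2.76 and 4.23 CPM in ethanol (log2 fold change 0.39 ± 0.44, adjusted p = 0.545, edgeR). Leaving out 1 library gave 0.04 to 0.62, lowest without ethanol replicate 4. In hAT-Blackjack, MER63A antisense measured 9.73, 6.07, 6.10 and 10.6 CPM in controls and 11.1, 3.70, 13.4 and 5.75 CPM in ethanol (log2 fold change 0.07 ± 0.42, adjusted p = 0.927, edgeR). The groups overlapped in both. The piggyBac element Looper, represented by 31 antisense and 24 sense counts, was too low to be tested, at 0.998 ± 0.826 and 0.630 ± 0.303 CPM antisense (SD, n = 4 each).

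The most abundant copies were set against the piRNA clusters of the same library, the summed counts of the largest transcript of each cluster in the table. These clusters took 16.8, 10.2, 14.3 and 18.1% of counts in controls and 18.6, 8.31, 25.8 and 9.94% in ethanol, so ethanol replicates 1 and 3 were high and replicates 2 and 4 low. Charlie1a_copy967 sense, with 20142 counts, differed 5.04-fold between its highest and lowest library in CPM, but 1.14-fold per piRNA cluster count. It had 3.17, 3.31, 2.98 and 3.26 counts per 1000 cluster counts in controls and 3.40, 3.37, 3.28 and 3.20 in ethanol. MER20_copy4703 sense, with 11823 counts, had 1.92 ± 0.0752 and 1.99 ± 0.273 per 1000 cluster counts (SD, n = 4 each).

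Of the 10 copies with the most counts, 9 behaved in this way: the ratio of highest to lowest library was 4.27 to 5.80 in CPM and 1.14 to 1.45 per piRNA cluster count. Beside the 2 sense copies these were antisense: Charlie1b_copy830, URR1B_copy15656, MER20_copy5200, MER20_copy1911, Charlie18a_copy220, Charlie1_copy794 and Tigger19a_copy209. Counts of each lay mainly on one strand, from 97.7% for Charlie1b_copy830 to 99.98% for MER20_copy5200. FordPrefect_copy126 was the exception among the 10. It had 23.6, 45.1, 31.9 and 12.9 counts per 1000 cluster counts in controls and 2.99, 15.8, 1.49 and 2.70 in ethanol, a 30.2-fold range against 18.8-fold in CPM, and ethanol replicate 2 lay within the control range. These ratios share their denominator within a library and are a description. Whether a copy lies inside a cluster was not tested, since the files give no positions.

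**Figure D3:**
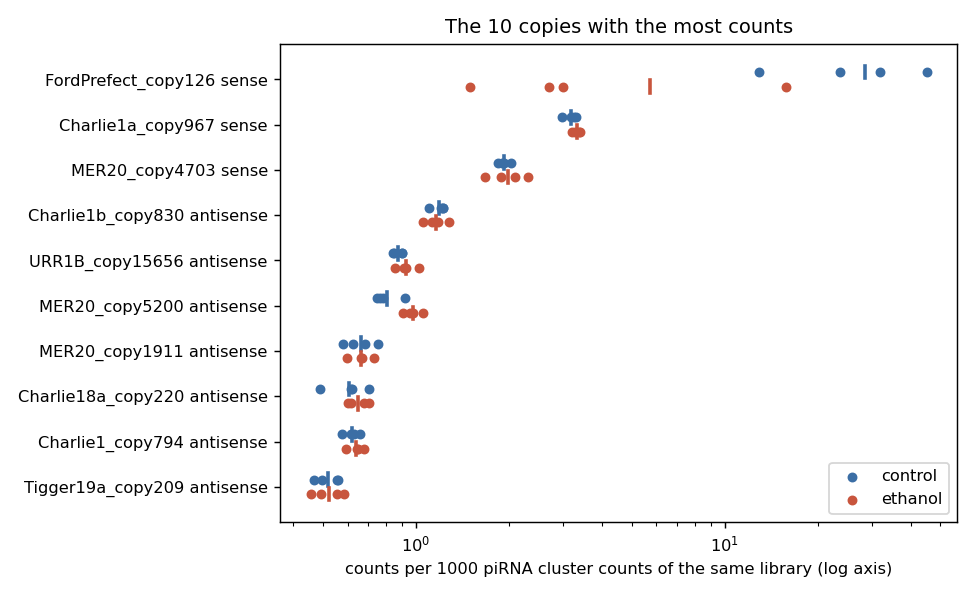
Counts per 1000 piRNA cluster counts of the same library (log axis) for the 10 DNA transposon copies with the most counts; each point is 1 library, 4 per group, and each bar a group mean. The points of 9 copies lie within a 1.14- to 1.45-fold range, and those of FordPrefect_copy126 run from 1.49 in ethanol to 45.1 in controls.

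Charlie1 antisense, whose largest copy held 38.9% of its counts, contained neighbouring copy numbers with different patterns. Charlie1_copy566 had 143, 91, 76 and 200 counts in controls and 895, 66, 309 and 82 in ethanol. Charlie1_copy567 and Charlie1_copy568 shared the counts 155, 93, 101 and 167 in controls and 53, 48, 306 and 127 in ethanol, and Charlie1_copy569 had 181, 119, 153 and 198 in controls and 80, 60, 448 and 116 in ethanol. Ethanol replicate 1 was therefore the highest library of Charlie1_copy566 at 129 CPM and the lowest of Charlie1_copy567 and Charlie1_copy569 at 7.61 and 11.5 CPM. None passed, with log2 fold changes of 0.68 ± 0.67 for Charlie1_copy566, -0.49 ± 0.57 for Charlie1_copy567 and -0.43 ± 0.59 for Charlie1_copy569 (adjusted p = 0.522 to 0.677, edgeR). These 4 copies were singled out after their values were seen.

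Without ethanol replicate 3, 5 of 54 tested copies (9.26%) passed in the lower direction, beside 5.1% of all features in that fit: FordPrefect_copy126 sense, Charlie1_copy567, Charlie1_copy568 and Charlie1_copy569 antisense, and URR1B_copy6126 antisense. Their log2 fold changes in that fit ran from -3.07 for FordPrefect_copy126 to -1.28 for URR1B_copy6126 (adjusted p = 0.00368 to 0.0433, edgeR). Without ethanol replicates 3 and 4, 5 of 64 passed (7.81%), beside 3.35% of all features, with Charlie1_copy794 sense in place of URR1B_copy6126. Charlie1_copy567 and Charlie1_copy568 share all their counts, so each total of 5 includes the same result under both copy names.

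**Figure D4:**
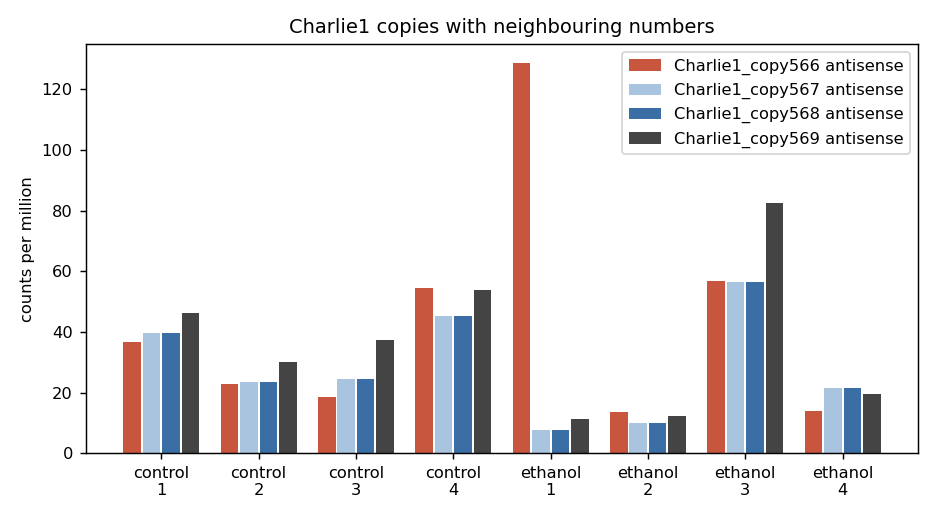
Antisense level in CPM of 4 Charlie1 copies with neighbouring numbers in each of the 8 libraries. Charlie1_copy566 reaches 129 CPM in ethanol replicate 1, where Charlie1_copy567 and Charlie1_copy568, which share their counts, are at 7.61 CPM.

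As a share of all counts, sense DNA transposons took 0.566, 0.570, 0.595 and 0.404% in control replicates 1 to 4 and 0.231, 0.219, 0.266 and 0.135% in ethanol replicates 1 to 4. The means were 0.534% ± 0.0875 and 0.213% ± 0.0555 (SD, n = 4 each). All 4 ethanol libraries were below all 4 controls, and the two-sided exact permutation test gave p = 0.0286, the smallest that 70 assignments allow, or 0.0857 adjusted over the 3 shares compared. The difference was -0.321 percentage points. It was -0.333 without ethanol replicates 1 and 2 and -0.308 without replicates 3 and 4 (exact permutation p = 0.133 each). With FordPrefect_copy126 left out, the sense share was 0.147% ± 0.0287 in controls and 0.150% ± 0.0636 in ethanol (SD, n = 4 each).

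The antisense share was 0.179, 0.119, 0.147 and 0.182% in controls and 0.194, 0.0915, 0.241 and 0.110% in ethanol, with overlap (exact permutation p = 0.943, also after adjustment). Antisense counts made up 24.0, 17.2, 19.8 and 31.1% of DNA transposon counts in controls and 45.7, 29.4, 47.6 and 44.9% in ethanol. Ethanol replicate 2 lay within the control range and the other 3 ethanol libraries above it. The difference of 18.9 percentage points gave an exact permutation p of 0.0571, or 0.0857 adjusted. That difference was 23.2 without ethanol replicates 1 and 2 and 14.5 without replicates 3 and 4 (exact permutation p = 0.133 and 0.267). Without FordPrefect_copy126 the difference was -0.316 percentage points. Among the counts of all transposons, DNA transposons made up 6.57% ± 1.05 in controls and 3.90% ± 0.460 in ethanol, and 2.84% ± 0.296 and 3.14% ± 0.517 without FordPrefect_copy126 (SD, n = 4 each).

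**Figure D5:**
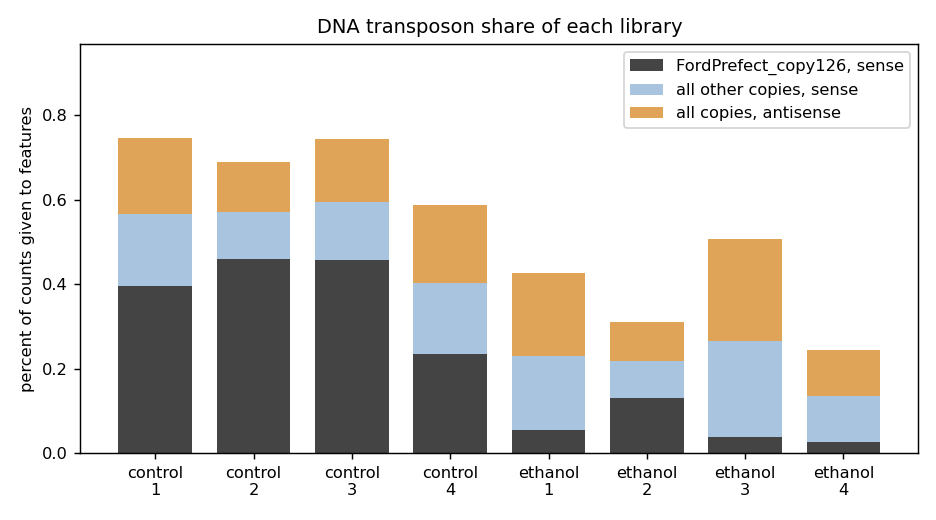
Percent of all counts in each of the 8 libraries taken by sense counts of FordPrefect_copy126, by sense counts of all other DNA transposon copies and by antisense counts, stacked. FordPrefect_copy126 takes 0.234 to 0.460% in controls and 0.0269 to 0.131% in ethanol, and the other sense and the antisense parts overlap between the groups.

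Genes connected with DNA transposons were measured as fragments of their mRNA exons. Of 28 genes that descend from DNA transposon transposases 11 were tested, 2 rose and 0 fell, and the median log2 fold change was 0.71. Over all 6545 tested mRNA exon features 1560 rose, 10 fell and the median was 0.88. Cenpb, the centromere protein that descends from a pogo-like transposase, measured 1.54, 2.02, 3.66 and 2.72 CPM in controls and 8.62, 21.8, 8.29 and 15.6 CPM in ethanol (log2 fold change 2.43 ± 0.44, adjusted p = 0.0287, edgeR). Zbed5, a gene of hAT origin, measured 1.54, 2.02, 1.22 and 2.18 CPM in controls and 3.73, 21.4, 4.05 and 4.57 CPM in ethanol (log2 fold change 2.25 ± 0.60, adjusted p = 0.0314, edgeR). Both were highest in ethanol replicate 2, the library with the highest mRNA and epididymal marker levels. Without that library Cenpb kept its call (log2 fold change 2.05, adjusted p = 0.00267, edgeR) and Zbed5 did not (1.18, adjusted p = 0.0558). Neither passed with limma-voom (adjusted p = 0.0569 for Cenpb and 0.089 for Zbed5) or when any 1 control library was left out (adjusted p = 0.0615 to 0.105 in edgeR).

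Of 22 genes of transposon silencing 10 were tested, and 0 rose and 0 fell in edgeR, with a median log2 fold change of 0.06. Over all 6545 tested mRNA exon features 1560 rose and 10 fell, and the median was 0.88. Of the 10 silencing genes, 1 (Trim28, higher in ethanol) had an unadjusted p under 0.05, and DESeq2 and limma-voom called 0. Piwil2, a PIWI protein that binds piRNAs, measured 18.0 ± 6.58 CPM in controls and 14.5 ± 8.73 CPM in ethanol, and Trim28, a corepressor of transposon chromatin, 11.5 ± 2.97 and 24.6 ± 16.1 CPM (SD, n = 4 each). Trim28 was at 14.1, 48.5, 17.7 and 18.1 CPM in ethanol replicates 1 to 4 (log2 fold change 1.09 ± 0.43, adjusted p = 0.098, edgeR). Of 187 names by strand in the DNA class of the table that lie outside the rule, 30 were tested, with a median of -0.25. In edgeR 0 of the 30 passed, beside 1.75% of all tested features that fell and 11.9% that rose. Of the 30, 3 had an unadjusted p under 0.05, and DESeq2 called 2 and limma-voom 0.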

How the data were processed

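The deposited data are 1 table in which the authors give whole-number counts for each annotated feature in each library; its rows cover sense and antisense transposon copies, miRNAs, exons, introns, structural RNAs and piRNA clusters, per the file headers. Extraction with Trizol and Qiaseq library preparation are per the labels' protocols. Aligner, counting rule, genome build, and whether the counts are reads or molecules are not given in the sources used here. Rows were summed per element name and strand, other rows per gene or cluster, giving 45090 features in 16 classes; superfamilies are those of the table.

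The test was edgeR 4.0.16 (R 4.3.3; TMM, filterByExpr by group with a minimum count of 10, robust quasi-likelihood fit on treatment, threshold 0.05), which was tested on simulated data. A second fit kept each transposon copy apart. The standard error is the absolute log2 fold change divided by the square root of F. For shares of counts the group means were compared over all 70 assignments of libraries (exact permutation, two-sided). Alternatives used DESeq2 1.42.0 and limma 3.58.1; Python 3.11.15 with pandas 2.3.3, scipy 1.17.1 and matplotlib 3.10.9 made shares and plots.

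The members and gene lists were chosen with earlier results of these data known. Named features are those past the threshold, the 5 of smallest p on either side, the 10 of highest mean CPM, the top feature of each superfamily, the 10 copies with the most counts and, in gene lists, up to 4 called members or, where none was called, the 2 of highest mean CPM; others are said to be chosen after their values were seen. The abundant names and copies are given by level, the others by fold change.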

Additional observations from a re-analysis of the deposited data

Results flagged for a closer look

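In 68 groups of 4 libraries examined, 4 held a library far from the other 3, where chance gives about 1 in 20. Tigger5b sense was at 11.8 CPM in control replicate 1, against 8.60 to 8.98 CPM in the other controls. Tigger13a sense was at 4.40 CPM in ethanol replicate 4, against 2.03 to 2.26 CPM in the other ethanol libraries. The sense DNA transposon share was 0.404% in control replicate 4, against 0.566 to 0.595% in the other controls. The antisense part of DNA transposon counts was 29.4% in ethanol replicate 2, against 44.9 to 47.6% in the other ethanol libraries.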

How the results depend on the processing

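The 2 names by strand that passed became 1 with limma-voom, a minimum count of 30, no count filter, without ethanol replicates 1 and 2 or without 3 and 4, and 0 with transposons alone or without the largest copies; leaving out 1 library gave 0 to 4. The 1 copy that passed became 0 with DESeq2 size factors or limma-voom and 5 without ethanol replicates 3 and 4, and 0 to 5 when 1 library was left out. Each total of 5 includes Charlie1_copy567 and Charlie1_copy568, which share all their counts. With the replicate number as a block (replicate block) 3 names and 1 copy passed; correlations between same-numbered libraries were 0.341, 0.209, -0.127 and -0.02, so the numbers were not taken to pair the libraries. In an exact test by sign flips over replicate numbers, the difference in sense share of -0.321 had p = 0.125, the smallest that test allows. That difference was 0.00298 without FordPrefect_copy126. The antisense share difference of 0.00259 turned to -0.0672 on the log2 scale, -0.00656 without the largest copies, -0.0137 without ethanol replicates 3 and 4 and -0.0187 as a percent of piRNA cluster counts, and was -0.0247 to 0.0252 when 1 library was left out. The difference in the antisense part of DNA transposon counts was -0.272 percentage points without the largest copies and -0.316 without FordPrefect_copy126. Among named features with no call, the log2 fold change turned without ethanol replicates 3 and 4 for Zaphod sense (-0.24), Tigger13a sense (-0.24), Charlie4a sense (-0.24) and MER63A antisense (-0.24). It turned for Charlie4a sense without the largest copies (-0.17), for MER63A antisense with limma-voom (-0.0666) and the replicate block (-0.0448), and for Kanga2_a antisense without ethanol replicates 1 and 2 (0.00639) and with transposons alone (0.17). Leaving out 1 library gave -0.19 to 0.31 for Tigger13a sense, -0.27 to 0.31 for Charlie4a sense and -0.33 to 0.25 for MER63A antisense. Apart from the settings that leave copies or libraries out, the cause was not tested. The piRNA cluster and miRNA denominators, the fits without FordPrefect_copy126 and with same-count copies counted once were chosen after seeing the data. Low counts limit most names: 150 of 220 were not tested.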
